A study of Homo sapiens with 6 samples.

Results

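Messenger RNA levels of 10 enzymes that free arachidonate from membrane lipids, or turn it into and out of prostaglandins and leukotrienes, were measured by RNA sequencing in Hep3B cells with and without knockdown of DAGLA. The genes were PLA2G4A, PLA2G6, PTGS1, PTGS2, PTGES, PTGES2, PTGES3, ALOX5, LTA4H and HPGD. They were taken by name, through their Ensembl identifiers in GENCODE release 29, from a table of 29908 genes, and all 10 had a row in it. Hep3B is an established line of human liver cancer cells. Hep3B-KD cells (3 libraries) were infected with a lentivirus that carries a short hairpin RNA against DAGLA, labelled shDAGLA. Hep3B-Con cells (3 libraries) were infected with a control lentivirus, labelled shControl and described in the series text as an empty vector. Both groups were infected at a multiplicity of infection of 5 and had passed through puromycin selection, so the comparison is of infected and selected cells in both arms. One hairpin was used against DAGLA in 1 cell line, and the libraries are described as biological replicates. The methods speak of selecting clones, and how many clones the sequenced cells came from is not given in the sources used here.

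DAGLA, diacylglycerol lipase alpha, makes the endocannabinoid 2-arachidonoylglycerol (2-AG). Hydrolysis of 2-AG is one source of free arachidonate, and phospholipase A2 enzymes, which cut the fatty acid from membrane phospholipids, are another. Cyclooxygenases turn free arachidonate into prostaglandin H2, from which the prostaglandin E synthases make prostaglandin E2, a lipid signal in inflammation, fever and tumour growth. In the other branch 5-lipoxygenase makes leukotriene A4, and LTA4H turns it into leukotriene B4, which attracts neutrophils. HPGD, 15-hydroxyprostaglandin dehydrogenase, ends the signal by oxidising prostaglandin E2.

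HPGD was the gene of the 10 with the largest difference, and its level in Hep3B-KD cells was 26.8% of that in Hep3B-Con cells. LTA4H rose in Hep3B-KD cells and PTGES2 fell, both by much less than 2-fold. PTGES3, the most abundant of the 10, differed by 0.10 on the log2 scale, and this value moved with the scaling. The genes for both cyclooxygenases, for the inducible prostaglandin E synthase PTGES, for 5-lipoxygenase and for the cytosolic phospholipase PLA2G4A were at 0.320 FPKM or less in every library. FPKM is fragments scaled to the union length of a gene's annotated exons and to the reads counted over genes in the library. Levels of different genes can be set side by side on it only roughly, since a transcript can be shorter than that union. For HPGD the union was 5529 bases and the transcript HPGD-202 was 3027 bases.

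**Figure D1:**
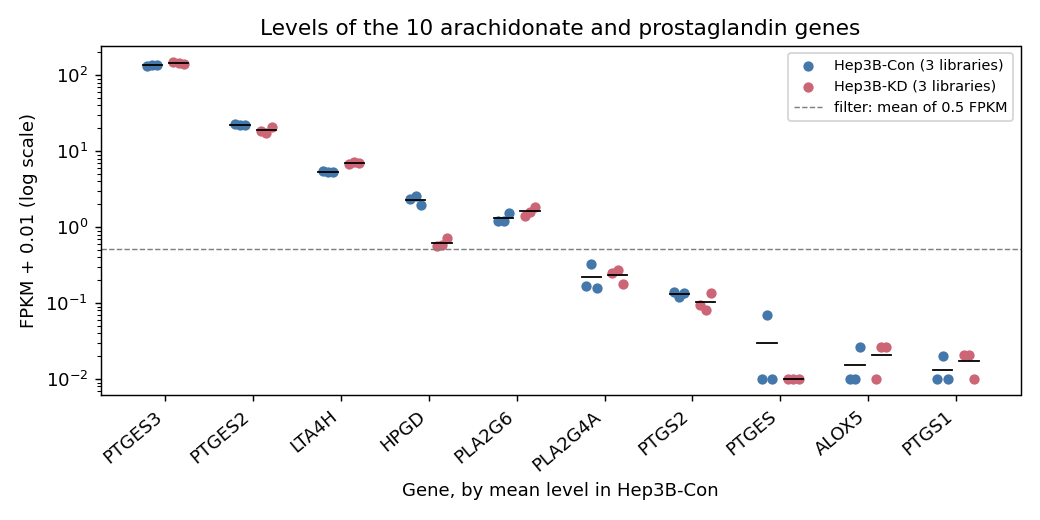
The plot of levels shows FPKM + 0.01 on a log axis for the 10 genes, ordered by their mean in Hep3B-Con, with a point for each of the 3 libraries of a group, a short bar at their mean and a dashed line at the filter of 0.5 FPKM. The 5 genes on the left are above the line, and the 5 on the right are below it in both groups.

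Depth set what could be read from these genes. The FPKM values could be turned back into whole reads, and the libraries held 15861039 to 17572714 reads. The hairpin's target, DAGLA, was at 9.42, 9.40 and 9.02 FPKM in Hep3B-Con and at 4.62, 4.46 and 4.78 FPKM in Hep3B-KD, a log2 fold change of -0.99 (SE 0.0441, limma adjusted p = 5.25e-06). Over the 14221 genes that averaged 0.5 FPKM or more, the median log2 fold change was 0.11, so a value near 0.11 is where a typical gene lies. At a fold of at least 2 and an adjusted p under 0.05, 838 genes were higher and 418 lower, against 622 and 536 after centring on the median ratio and 477 and 587 after quantile normalization. Hepatocyte markers (8 genes) summed to 2527 to 2577 FPKM in Hep3B-Con and 4053 to 4072 FPKM in Hep3B-KD, a sum carried by ALB (means 2042 and 3315 FPKM). FGB went the other way, from 19.5 to 9.96 FPKM, and SERPINA1 was at 226 and 247 FPKM. The leukocyte list (3 of 5 genes with a row) summed to 2.08 to 3.19 and 3.04 to 4.04 FPKM, nearly all of it LYZ, with PTPRC near 0. The fibroblast list of 5 genes summed to 6.62 to 7.43 and 3.36 to 3.84 FPKM, mostly LUM, with DCN near 0, and all 4 endothelial markers were under 0.5 FPKM in every library. The part of these shifts in the results was not tested. The table also does not tell apart fewer cells that carry a transcript from less of it per cell.

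Of the 10 genes, 5 passed the filter on low values and were tested, and 4 of these had an adjusted p under 0.05 (limma with Benjamini-Hochberg adjustment over all 14221 genes). Of all genes tested, 59.9% did, so a call alone said little about these enzymes. LTA4H and PTGES3 were called higher, against 36.1% of all genes, and PTGES2 and HPGD lower, against 23.8%. The call of PTGES3 was lost and its sign turned (log2 fold change -0.0082) when the libraries were centred on the median ratio. HPGD alone was called with a fold of at least 2, against 8.83% of all genes in either direction and 2.94% in the lower direction. At least 2-fold higher, 0 of the 5 tested were called, against 5.89%, and with 5 genes a count of 0 cannot be told apart from that share. The median log2 fold change of the 5 was 0.10. The same 4 genes were those whose groups did not overlap in FPKM, against 66.9% of all genes.

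**Figure D2:**
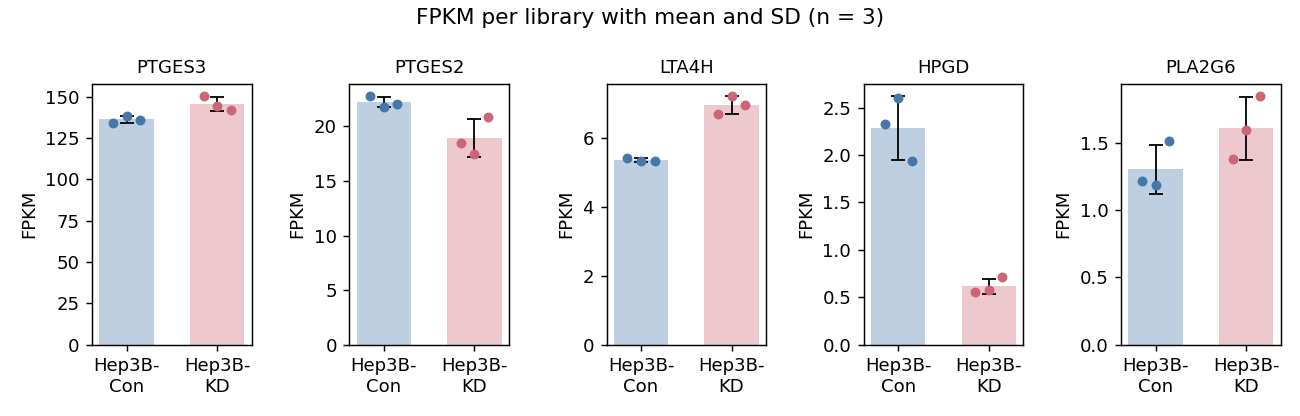
Each panel plots the FPKM of one tested gene in the 3 Hep3B-Con and 3 Hep3B-KD libraries, with the mean and SD as a bar, on an axis that starts at 0. The groups of PTGES2, PTGES3, LTA4H and HPGD do not overlap, those of PLA2G6 do, and HPGD shows the widest gap, from 2.29 to 0.614 FPKM.

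The release step rests in part on phospholipases A2. PLA2G4A (ENSG00000116711, chr1:186828953-186988981, plus strand) is the calcium-dependent cytosolic enzyme with a preference for arachidonate. It was at 0.158, 0.320 and 0.146 FPKM in Hep3B-Con and at 0.241, 0.260 and 0.168 FPKM in Hep3B-KD. The groups overlapped, and both held 31 reads in sum (exact permutation test, two-sided, p = 0.8). PLA2G6 (ENSG00000184381, chr22:38111495-38205690, minus strand) is the calcium-independent enzyme, which also serves phospholipid remodelling. Its levels were 1.21, 1.18 and 1.51 FPKM in Hep3B-Con and 1.38, 1.59 and 1.85 FPKM in Hep3B-KD. The highest control library lay above the lowest knockdown library, and the means were 1.30 ± 0.182 and 1.61 ± 0.233 FPKM (SD, n = 3 each). The log2 fold change of PLA2G6 was 0.28 with a 95% interval from -0.074 to 0.64 (limma adjusted p = 0.145), so neither no difference nor a rise of the upper size was outside the interval. With limma-voom on the recovered reads it did pass, at 0.31 (adjusted p = 0.0433), while it was 0.18 after centring (adjusted p = 0.343) and 0.035 with quantile normalization (adjusted p = 0.857).

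Neither cyclooxygenase gene gave enough reads for a comparison. PTGS1 (ENSG00000095303, chr9:122370530-122395703, plus strand) encodes the constitutive enzyme, COX-1. It had 0, 1 and 0 reads in Hep3B-Con and 1, 1 and 0 in Hep3B-KD. A count of 0 allows up to 3 reads, which is 0.0295 to 0.0327 FPKM for this gene. PTGS2 (ENSG00000073756, chr1:186671791-186680427, minus strand) encodes the inducible enzyme, COX-2, and lies next to PLA2G4A on chromosome 1. It was at 0.130, 0.109 and 0.125 FPKM in Hep3B-Con and at 0.0838, 0.0709 and 0.126 FPKM in Hep3B-KD. Those values are 12, 10 and 11 reads against 7, 6 and 11, and the third knockdown library was level with the controls. The difference in PTGS2 was not detectable at this depth (exact permutation test, two-sided, p = 0.3, where 3 against 3 allows no p below 0.1).

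The prostaglandin E synthases spanned the whole range of levels. PTGES (ENSG00000148344, chr9:129738331-129753047, minus strand), the membrane enzyme that is usually induced with PTGS2, had 2 reads in Hep3B-Con replicate 2 and 0 in the other 5 libraries. The limit that a count of 0 allows was 0.0900 to 0.0998 FPKM. PTGES2 (ENSG00000148334, chr9:128120693-128128462, minus strand) encodes a membrane-associated synthase. It was at 22.8, 21.8 and 22.1 FPKM in Hep3B-Con and at 18.5, 17.5 and 20.8 FPKM in Hep3B-KD. All 3 knockdown libraries were below all controls, with means of 19.0 ± 1.71 against 22.2 ± 0.495 FPKM (SD, n = 3 each). PTGES2 fell by 0.23 on the log2 scale (SE 0.0636, 95% interval of the change -0.39 to -0.081, limma adjusted p = 0.0176), and the call was lost without Hep3B-Con replicate 1 (adjusted p = 0.0553) or Hep3B-KD replicate 1 (adjusted p = 0.0556).

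PTGES3 (ENSG00000110958, chr12:56663341-56688408, minus strand) encodes p23, the cytosolic synthase that is also a co-chaperone of HSP90. It was at 134, 138 and 136 FPKM in Hep3B-Con and at 150.5, 145 and 142 FPKM in Hep3B-KD. The knockdown libraries were all above the controls, with means of 146 ± 4.41 against 136 ± 2.01 FPKM (SD, n = 3 each). The log2 fold change of PTGES3 was 0.10 (SE 0.0256, limma adjusted p = 0.0164), beside 0.11 for the median gene. With quantile normalization it was 0.28 (adjusted p = 0.000400), beside 0.015 for the median gene. The call was lost after centring (-0.0082, adjusted p = 0.799), without a trend in the variance (adjusted p = 0.0742) and without Hep3B-Con replicate 1 (adjusted p = 0.0525).

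Reads of PTGES3 can be shared with processed copies of it elsewhere in the genome. PTGES3P1 on chromosome 1 is 98.3% identical to the PTGES3 transcript over 483 bases, with an identical run of 143 bases. It was listed at 6.72, 10.2 and 7.59 FPKM in Hep3B-Con and at 10.3, 9.54 and 9.98 FPKM in Hep3B-KD. PTGES3P3 on chromosome 4 is 96.1% identical over 482 bases and had 3 to 8 reads per library. Reads from identical runs cannot be assigned to one locus, so the small values of the copies are uncertain. Their 57 to 86 reads (PTGES3P1) stand beside 7698 to 8179 reads of PTGES3.

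In the leukotriene branch the first enzyme was near absent from the reads and the last was present. ALOX5 (ENSG00000012779, chr10:45374176-45446119, plus strand), 5-lipoxygenase, had 0, 0 and 1 read in Hep3B-Con and 0, 1 and 1 in Hep3B-KD, and a count of 0 allows 0.0458 to 0.0507 FPKM. LTA4H (ENSG00000111144, chr12:96000828-96043520, minus strand), leukotriene A4 hydrolase, is also an aminopeptidase. It was at 5.44, 5.34 and 5.35 FPKM in Hep3B-Con and at 6.71, 7.23 and 6.97 FPKM in Hep3B-KD. The controls lay within 0.1 FPKM of each other and every knockdown library was more than 1 FPKM above them. LTA4H rose by 0.37 on the log2 scale (SE 0.0433, 95% interval 0.26 to 0.47, limma adjusted p = 0.000373), with means of 6.97 ± 0.263 against 5.38 ± 0.0520 FPKM (SD, n = 3 each). It stayed called with log2 fold changes from 0.25 to 0.40 in all 16 other settings. The spans of LTA4H and PLA2G6 overlap those of the antisense genes AC007298.2 and AL022322.2. Reads from any exon bases they share cannot be told apart without strand. AC007298.2 was listed at 0 in 4 libraries and at up to 0.350 FPKM, and AL022322.2 at 0.0177 FPKM or less.

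The breakdown step held the largest difference of the 10 genes. HPGD (ENSG00000164120, chr4:174490177-174523154, minus strand) was at 2.33, 2.60 and 1.93 FPKM in Hep3B-Con and at 0.559, 0.574 and 0.708 FPKM in Hep3B-KD. Those values rest on 226, 250 and 178 reads against 49, 51 and 65. The groups were far apart: the lowest control was 1.93 FPKM and the highest knockdown library 0.708 FPKM. The means were 2.29 ± 0.335 and 0.614 ± 0.0823 FPKM (SD, n = 3 each), a 3.73-fold lower level in Hep3B-KD. HPGD fell by 1.74 on the log2 scale (SE 0.155, 95% interval of the change -2.11 to -1.37, limma adjusted p = 0.000101). Among the 14221 genes, 144 (1.01%) had a log2 fold change as low as or lower than that of HPGD. The exact permutation test gave p = 0.1, the smallest that 3 against 3 allows. The call held in all 16 other settings, with values from -2.01 (quantile normalization) to -1.02 (pseudocount of 1 FPKM, which weighs down low genes).

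**Figure D3:**
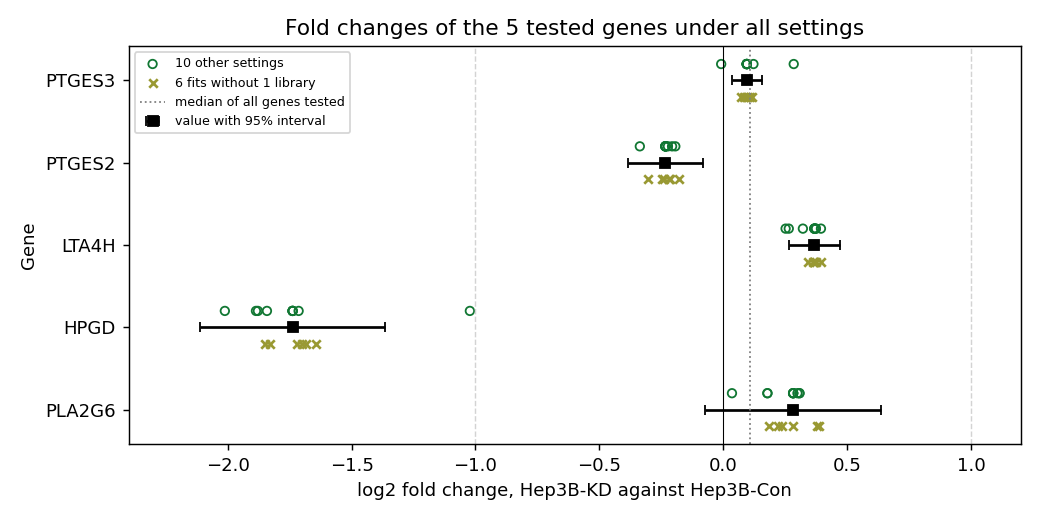
The plot of fold changes gives the log2 fold change of each tested gene with its 95% interval (square), its values under 10 other settings (circles) and in 6 fits that each leave out 1 library (crosses), with dashed lines at a fold of 2 and a dotted line at 0.11, the median of all genes. HPGD stays at -1.02 or lower and LTA4H at 0.25 or higher, while PTGES3 reaches both sides of 0.

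The hairpin itself can be set beside the HPGD transcript, since the guide strand of a hairpin can also act on transcripts that match its seed (bases 2 to 8). The first 2 sequences are the hairpin's target in DAGLA and its reverse complement, taken here as the guide strand, and the next 2 are stretches of the HPGD 3' UTR. Capitals mark the seed in the guide and the 7 bases that match it in the others.
shDAGLA target: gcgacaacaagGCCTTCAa
guide strand: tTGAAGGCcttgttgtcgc
HPGD match 1: tagaaaacaattGCCTTCActtttaaggag
HPGD match 2: tttggactagtaGCCTTCAatatacattct
The target is in the coding part of exon 18 of 20 of DAGLA (chr11:61740504-61740522, plus strand). The HPGD matches are in the last exon (chr4:174490655-174490661 and chr4:174490395-174490401, minus strand), at bases 1295 to 1301 and 1555 to 1561 after the stop codon of the transcript HPGD-202. Match 1 shares 10 of the 19 target bases and match 2 shares 9, so neither is a copy of the whole target. Both matches were in 3 of the 7 protein-coding HPGD transcripts with a 3' UTR of at least 50 bases.

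HPGD was the only 1 of the 10 genes whose longest annotated 3' UTR held GCCTTCA, on the transcript strand. Of the 11188 tested genes, DAGLA aside, with a 3' UTR of at least 50 bases, 14.5% held it once or more and 2.26% held it 2 or more times. The median log2 fold change was 0.11 over the genes with no match, -0.038 over those with 1 and -0.040 over those with 2 or more. Genes at least 2-fold lower (adjusted p under 0.05) made up 2.18%, 7.57% and 11.9% of these classes. Among the pathway genes below, PLA2G15, a lysosomal phospholipase, also held 2 matches. It was at 3.37 ± 0.238 FPKM in Hep3B-Con and 3.07 ± 0.186 FPKM in Hep3B-KD (limma adjusted p = 0.184, and 0.0368 after centring). Over the 16 other settings the log2 fold change of PLA2G15 ran from -0.32 to -0.098 and its limma adjusted p from 0.0115 to 0.393. A match of 7 letters is a description of the sequence, and longer UTRs hold more matches by length alone. The part of the seed in the lower HPGD level was not tested, and with 1 hairpin an effect of the seed and of lower DAGLA cannot be told apart.

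Ranked by level, the order in Hep3B-Con was PTGES3, PTGES2, LTA4H, HPGD, PLA2G6, PLA2G4A, PTGS2, PTGES, ALOX5 and PTGS1. Neighbours in that order did not overlap from PTGES3 down to PTGS2 against PTGES, while PTGES, ALOX5 and PTGS1 overlapped each other. Ratios between genes rest on the annotated exon lengths and are rough. PTGES3 was 6.13-fold above PTGES2, and PTGES2 4.14-fold above LTA4H. HPGD was 1.76-fold above PLA2G6 in Hep3B-Con, and in Hep3B-KD the order of this pair turned, with PLA2G6 2.62-fold above HPGD. No library of either gene crossed into the range of the other within a group.

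The enzymes around these 10 were taken from a list of 88 arachidonate pathway genes in 10 roles, of which 75 had a row and 37 passed the filter. At an adjusted p under 0.05, 11 were called higher and 11 lower, 59.5% of those tested against 59.9% of all genes, and the median log2 fold change was 0.036. A fold of at least 2 was called for 2 of the 37, ACSL1, lower, and PTGER4, higher. Of all genes tested, 8.83% were called at that fold, 2.94% lower and 5.89% higher. Genes named below other than the most abundant of each role, ACSL1 and PTGER4 were picked after their values were seen.

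Hydrolysis of 2-AG and its relative anandamide was represented by 3 tested genes, of which 1 was called (59.9% of all genes were). ABHD12, a 2-AG hydrolase, was the most abundant at 24.2 ± 0.917 FPKM in Hep3B-Con and 24.5 ± 1.68 FPKM in Hep3B-KD (log2 fold change 0.013, limma adjusted p = 0.850). FAAH, which hydrolyses anandamide, was at 5.06 ± 0.377 and 6.04 ± 0.359 FPKM (0.25, limma adjusted p = 0.0209), a call that was lost after centring (adjusted p = 0.118) and in other settings (adjusted p up to 0.196). MGLL, the main 2-AG hydrolase of many tissues, had 17 reads in sum in Hep3B-Con and 6 in Hep3B-KD and was not tested. Of 7 tested genes listed with the other phospholipases A2, 2 were higher and 1 lower, against 36.1% and 23.8% of all genes. That list also holds PLAA, an activating protein rather than a phospholipase (limma adjusted p = 0.112). PNPLA8, a calcium-independent phospholipase, rose from 2.05 ± 0.142 to 3.97 ± 0.560 FPKM (log2 fold change 0.91, limma adjusted p = 0.000509). PLA2G12B, a secreted family member without phospholipase activity, fell from 22.5 ± 1.04 to 16.6 ± 1.42 FPKM (limma adjusted p = 0.00135).

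Activation of arachidonate to its CoA ester and its return to phospholipids had the most tested genes, 8, of which 3 were higher and 4 lower (59.9% of all genes were called). ACSL1, a long-chain acyl-CoA synthetase, was at 5.43, 5.72 and 5.82 FPKM in Hep3B-Con and at 1.74, 1.91 and 1.69 FPKM in Hep3B-KD. That was 3.18-fold lower with no overlap (log2 fold change -1.62, SE 0.0678, limma adjusted p = 4.19e-06), and the longest 3' UTR of ACSL1 held 1 match to the hairpin's seed. So did those of PLA2G12B, CBR4 and PLA2G12A, the last at 3.52 ± 0.211 and 3.76 ± 0.342 FPKM (limma adjusted p = 0.383). ACSL3 fell from 46.8 ± 2.19 to 26.3 ± 0.238 FPKM. ACSL4, the family member with a known preference for arachidonate, was the most abundant at 75.8 ± 1.40 and 75.9 ± 1.56 FPKM (limma adjusted p = 0.955), and scalings called it in opposite directions. Among the acyltransferases LPCAT4 fell from 3.49 ± 0.309 to 1.84 ± 0.0933 FPKM, while MBOAT7, which puts arachidonate into phosphatidylinositol, rose by 0.35 on the log2 scale (limma adjusted p = 5.45e-05). Of the 4 genes listed under arachidonate synthesis, 2 were called lower and 1 higher, against 23.8% and 36.1% of all genes. FADS1, the delta-5 desaturase, fell by 0.60 on the log2 scale (limma adjusted p = 1.22e-05). Its span lies within that of FADS2 on the opposite strand. Whether they share exon bases is not given here, and such reads could not be told apart without strand. FADS2 was at 4.92 ± 0.0377 and 5.04 ± 0.130 FPKM (limma adjusted p = 0.493). The 2 listed elongases differed: ELOVL5 fell by 0.11 (limma adjusted p = 0.0106) and ELOVL2 rose by 0.20 (limma adjusted p = 0.00114).

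The tested receptors for prostaglandin E2, PTGER4 and PTGER2, moved in opposite directions. PTGER1 had 12 reads in sum in Hep3B-Con and 18 in Hep3B-KD, PTGER3 had 8 and 22, and neither was tested. Of 3 tested prostanoid receptors 1 was called higher and 1 lower, against 36.1% and 23.8% of all genes. PTGER4, the EP4 receptor, was at 3.32, 3.60 and 3.72 FPKM in Hep3B-Con and at 7.50, 8.39 and 8.38 FPKM in Hep3B-KD. Every knockdown library was above every control, 2.28-fold on the means (log2 fold change 1.17, SE 0.0672, limma adjusted p = 1.46e-05). PTGER2, the EP2 receptor, was at 1.33, 1.02 and 1.38 FPKM in Hep3B-Con and at 0.663, 0.604 and 0.780 FPKM in Hep3B-KD (log2 fold change -0.78, SE 0.177, limma adjusted p = 0.00800). PTGER4 and PTGER2 kept their directions and an adjusted p under 0.05 in every other setting in which they were tested, 16 and 15, but with a pseudocount of 1 FPKM PTGER4 was at 0.999 on the log2 scale, just under a fold of 2.

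Among the other prostanoid synthases, CBR1, a carbonyl reductase that can act on prostaglandin E2, was the only 1 tested of 7 with a row, and it fell from 6.22 ± 0.440 to 4.20 ± 0.392 FPKM (limma adjusted p = 0.00119). In breakdown and transport beside HPGD, ABCC4, which exports prostaglandins, fell by 0.26 on the log2 scale (limma adjusted p = 0.00834), and CBR4 was at 4.49 ± 0.258 and 4.22 ± 0.287 FPKM (limma adjusted p = 0.321, and 0.0274 with quantile normalization). In the leukotriene branch MGST2 was at 7.83 ± 0.502 and 8.68 ± 0.441 FPKM (limma adjusted p = 0.0762, and 0.0456 at the same sum per library), and MGST3 rose from 4.56 ± 0.338 to 6.21 ± 0.137 FPKM (limma adjusted p = 0.000946). GGT1 fell from 2.18 ± 0.233 to 1.68 ± 0.202 FPKM (limma adjusted p = 0.0372, and up to 0.114 in other settings). LTB4R, a receptor for leukotriene B4, was at 3.96 ± 0.294 and 3.92 ± 0.151 FPKM (limma adjusted p = 0.899). Of 3 tested genes listed with the epoxygenases and epoxide hydrolases, 2 were called higher, against 36.1% of all genes. CYP2J2, an epoxygenase, was at 2.40 ± 0.377 and 2.65 ± 0.178 FPKM (limma adjusted p = 0.353). The epoxide hydrolases, which convert epoxides of arachidonate and other lipids, were the 2 that rose. EPHX1 went from 29.8 ± 1.24 to 54.2 ± 1.94 FPKM (limma adjusted p = 6.45e-06) and EPHX2 from 2.75 ± 0.167 to 4.94 ± 0.119 FPKM (limma adjusted p = 4.42e-05).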

How the data were processed

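The authors deposited FPKM values in 1 table of 29908 Ensembl genes, with a column for each of the 6 libraries and 0 other value columns. The submitters' processing notes name Bowtie2 2.0.6, TopHat2 2.0.12 and the build GRCh37. However, FPKM times the union exon length in GENCODE 29 (GRCh38) and the library total came within 0.01 of whole reads for 100% of values, so GENCODE 29 coordinates (GRCh38) are printed. The counting tool and the use of strand are not given in the sources used here.

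Values were analysed as log2(FPKM + 0.1). Fold changes on this scale understate those of low genes. The 14221 genes that averaged 0.5 FPKM or more were tested with limma 3.58.1 (lmFit, eBayes with trend) in R 4.3.3 without covariates, with Benjamini-Hochberg adjustment. Single values were compared with two-sided exact permutation tests over libraries (scipy 1.17.1). The limit for a count of 0 was 3 reads, and limits cover counting error only. Groups came from the sample titles. Replicates differed by more than counting noise (chi-square per gene 1.80 to 3.30), and p-values measure the spread between these libraries. Scripts were tested on simulated data.

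The 10 genes and the lists were chosen with earlier results of these data known. All 10 genes are named, with the most abundant gene of each pathway role in Hep3B-Con, those at least 2-fold changed, and PTGES3 copies. Alternatives were other pseudocounts, filters, scalings, no variance trend, a replicate block, voom on recovered reads and leaving out each library. Hairpin and UTR sequences came from the study's supplementary list of transfection sequences and GENCODE 29 transcripts.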

Additional observations from a re-analysis of the deposited data

How the results depend on the processing

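HPGD and LTA4H kept direction and call in all 16 alternatives, and 1 of the 10 enzymes was called with a fold of at least 2 in each. The count of enzymes called was 4, beside 59.9% of all genes tested. It was 5 with voom on recovered reads (63.1% of all genes), 3 after centring (58.9%) and 3 without a variance trend (58.8%). When 1 library was left out it was 2 to 4, with 2 without Hep3B-Con replicate 1 (55.7%). PTGES2 ranged from -0.30 to -0.18 without 1 library (adjusted p 0.00160 to 0.0556). PTGES3 ranged from 0.072 to 0.11 without 1 library, was -0.0082 after centring on the median ratio and 0.095 without a variance trend (adjusted p = 0.0742), and 0.28 with quantile normalization (adjusted p = 0.000400). PLA2G6 was 0.31 with voom on recovered reads (adjusted p = 0.0433), 0.18 after centring (adjusted p = 0.343) and 0.035 with quantile normalization (adjusted p = 0.857). Centring moves every gene by construction, and for the others the cause was not tested. Pathway genes called with a fold of at least 2 numbered 2 of 37 tested, against 1 with a pseudocount of 1 FPKM and 4 with quantile normalization, and 2 to 3 without 1 library. Over all 14221 genes tested that count was 1256, against 503 with a pseudocount of 1 FPKM, which shrinks fold changes of low genes. It was 1064 with quantile normalization and 1206 to 1264 without 1 library. CBR4 was -0.24 with quantile normalization (adjusted p = 0.0274) and MGST2 0.18 at the same sum per library (adjusted p = 0.0456). Genes near 0 and not called changed sign. ABHD12 was -0.090 after centring and -0.043 to 0.042 without 1 library. ACSL4 was -0.10 after centring (adjusted p = 0.00845), 0.12 with quantile normalization (adjusted p = 0.00789) and -0.015 to 0.017 without 1 library. LTB4R was 0.015 at the same sum per library and -0.071 to 0.031 without 1 library. Replicate numbers did not pair the libraries (correlations of deviations -0.0134, -0.0656 and -0.00110). With the replicate block the 4 enzymes stayed called (HPGD adjusted p = 0.00192, LTA4H 0.00418, PTGES2 0.0249, PTGES3 0.0414) and 7919 genes were called against 8521. Depth limited PTGS1, PTGES, ALOX5, PTGS2 and PLA2G4A. Without the filter their limma adjusted p ranged from 0.494 to 0.854.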
